A study of Emiliania huxleyi CCMP1516 with 36 samples.

Results

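NHA1, TPC1, CCX1 and CAM1 are 4 of the 37212 genes in a count table of the marine alga Emiliania huxleyi. Their symbols name a Na+/H+ antiporter, a cation channel, a cation/calcium exchanger and calmodulin. They were chosen with earlier results of these data known, so the number of them that responded is no independent evidence. All 4 were among the 26494 genes with enough counts to be tested. Axenic cultures of strain CCMP2090, free of bacteria, were given 2-heptyl-4-quinolone (HHQ), a quinolone with an alkyl chain through which some bacteria signal to each other. The question was how the alga's transcripts responded to it. RNA with poly(A) tails was sequenced from 36 cultures, 1 library each, in 9 groups of 4 biological replicates. One group is the parent cultures that gave the inoculum, taken untreated at time 0. The others were sampled after 24 or 72 h with HHQ, at a dose of 1, 10 or 100 ng/ml, or with only its vehicle, 0.002% DMSO. All groups share the strain, the axenic state and the seawater medium.

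Cells hold free calcium and sodium low in the cytosol against their level in seawater, and they use short rises in calcium as a signal. Channels let the ions in or out of stores. Exchangers and pumps then move them back, driven by gradients of protons or sodium or by ATP. Calmodulin is a small protein that binds calcium during such a rise and then binds target proteins. Coccolithophores, the group to which this alga belongs, also use calcium to build calcite scales inside the cell, so that calcium transport is studied in them for that reason too.

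The symbols are what the table gives, and a role below is the usual meaning of a symbol in the species named, not one established for this alga here. The locus tags are EMIHUDRAFT_521936 for NHA1, EMIHUDRAFT_280150 for TPC1, EMIHUDRAFT_203920 for CCX1 and EMIHUDRAFT_442625 for CAM1. The counts are estimates that divide a read among transcripts it matches. For NHA1 all 36 values were whole numbers. For TPC1 and CAM1 none of the 36 was whole, and for CCX1 35 were not, so reads of these 3 genes were partly divided with other transcripts. Which transcripts these are was not traced, and the levels of the 3 genes are less certain for it. Depth per library ran from 9 to 473 counts for NHA1, from 15.1 to 315 for CCX1, from 214 to 2537 for TPC1 and from 3435 to 46571 for CAM1. Levels are given as CPM, counts scaled to library size, after TMM scaling, which sets the bulk of genes equal between libraries. They are compared between groups for 1 gene at a time, never between genes, since transcript lengths were not used here. In cultures sampled in bulk, fewer cells with a transcript and less of it per cell cannot be told apart.

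Library totals ran from 5679128 to 42602884 counts. Within groups 1 library stood apart at the early times: replicate 1 of the parent group, and replicate 4 of the vehicle, HHQ 10 and HHQ 100 groups. In HHQ 1 at 24 h replicates 1 and 4 lay at opposite ends of the first axis of variation (loadings 0.714 and −0.657), and replicate 1 was left out where such libraries are left out. At 72 h replicates 1 and 2 differed from 3 and 4 in all 4 treatments. Scaling matters at the highest dose: TMM factors were 1.60 to 1.83 for HHQ 100 and 0.670 to 1.10 for vehicle at 24 h, and 1.23 to 2.13 against 0.491 to 0.895 at 72 h. If only library totals were used, the median response over the tested genes became 0.873 (24 h) and 1.17 (72 h) on the log2 scale, in place of 0.0714 and 0.0372. Changes below are therefore relative to the bulk of genes.

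**Figure D1:**
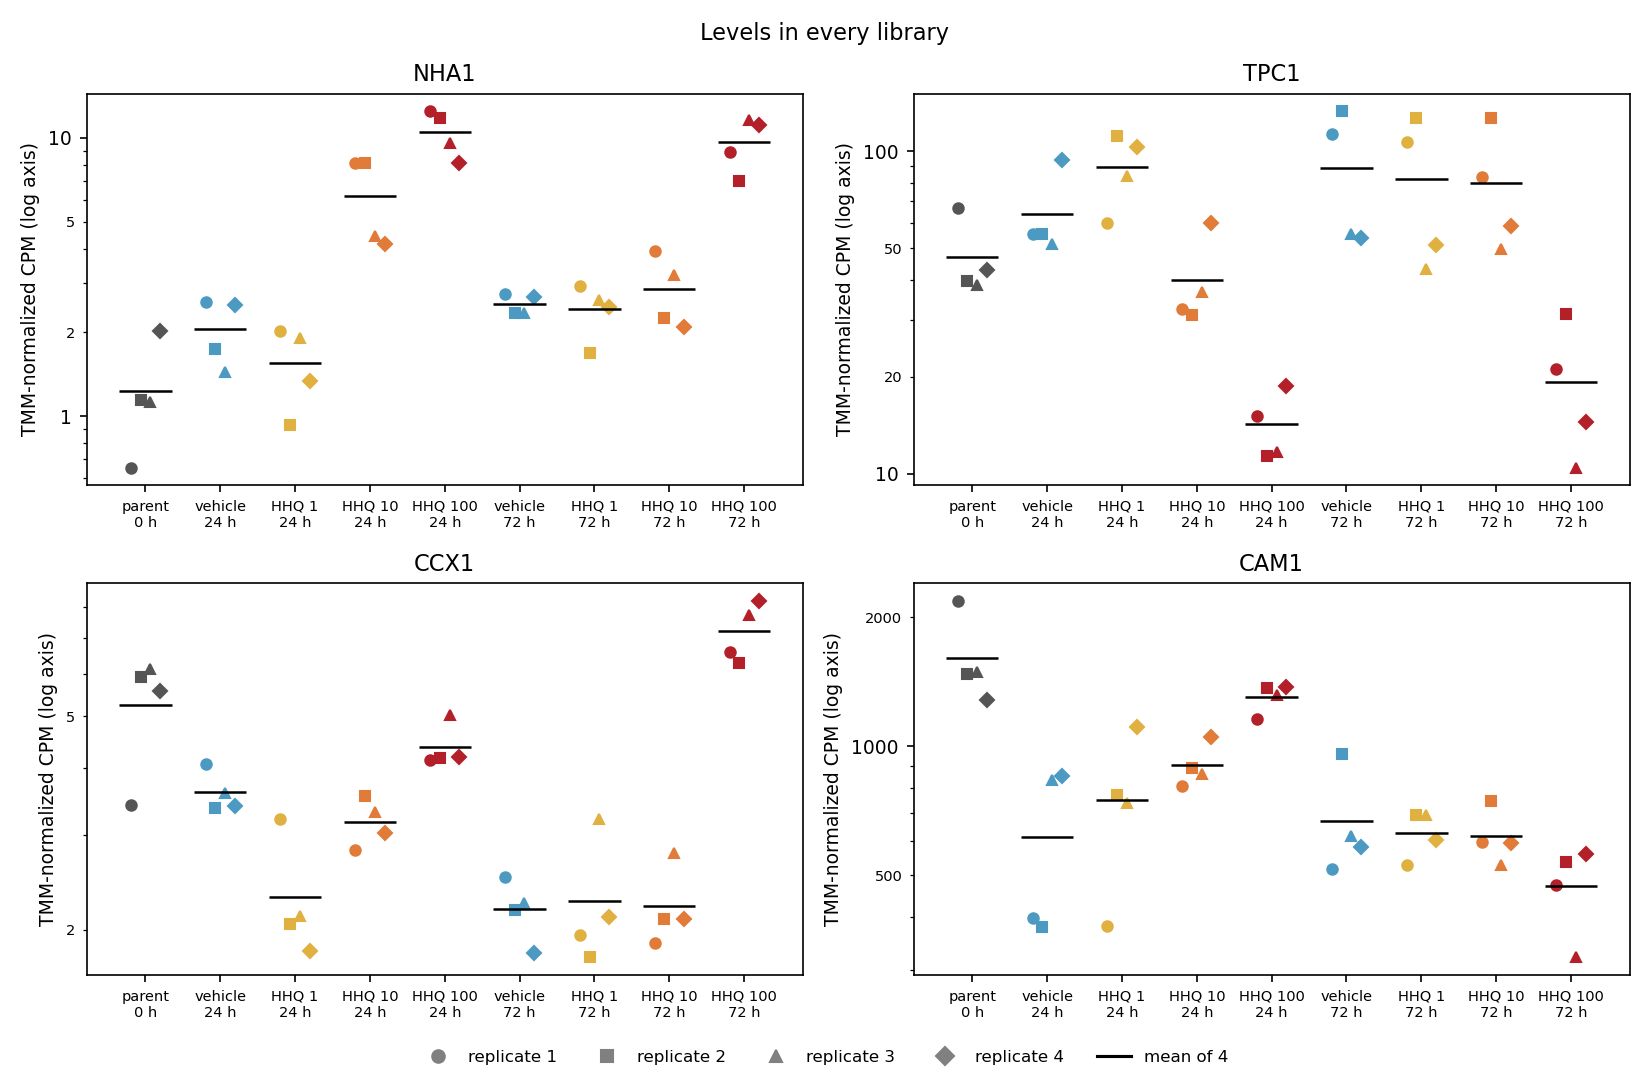
TMM-normalized CPM on a log axis for NHA1, TPC1, CCX1 and CAM1 in every library, by group; symbols mark replicates 1 to 4 and the bar is the mean of 4. NHA1 stood highest in the 100 ng/ml groups at both times and in the 10 ng/ml group at 24 h, TPC1 lowest in the 100 ng/ml groups, CCX1 highest at 100 ng/ml and 72 h, and CAM1 highest in the parent cultures on this scale; by share of all counts CAM1 was highest in the 100 ng/ml group at 24 h.

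Against vehicle, 3 of the 4 genes were called at 100 ng/ml after 24 h, where 41.1% of all tested genes were called, and 3 of 4 after 72 h, where 46.2% were. A call is an adjusted p under 0.05 in edgeR's quasi-likelihood test with Benjamini-Hochberg adjustment over all tested genes. At 10 ng/ml 1 of 4 was called after 24 h, beside 11.8% of all genes, and 0 of 4 after 72 h, beside 0.947%. At 1 ng/ml 0 of 4 was called at either time, beside 0% of all genes (edgeR; 2045 genes at 24 h and 494 at 72 h had an unadjusted p under 0.05, and DESeq2 called 12 and 8 genes, none of them among the 4). With so few genes, chosen with earlier results known, these counts say little beyond the background, and what follows describes each gene.

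**Figure D2:**
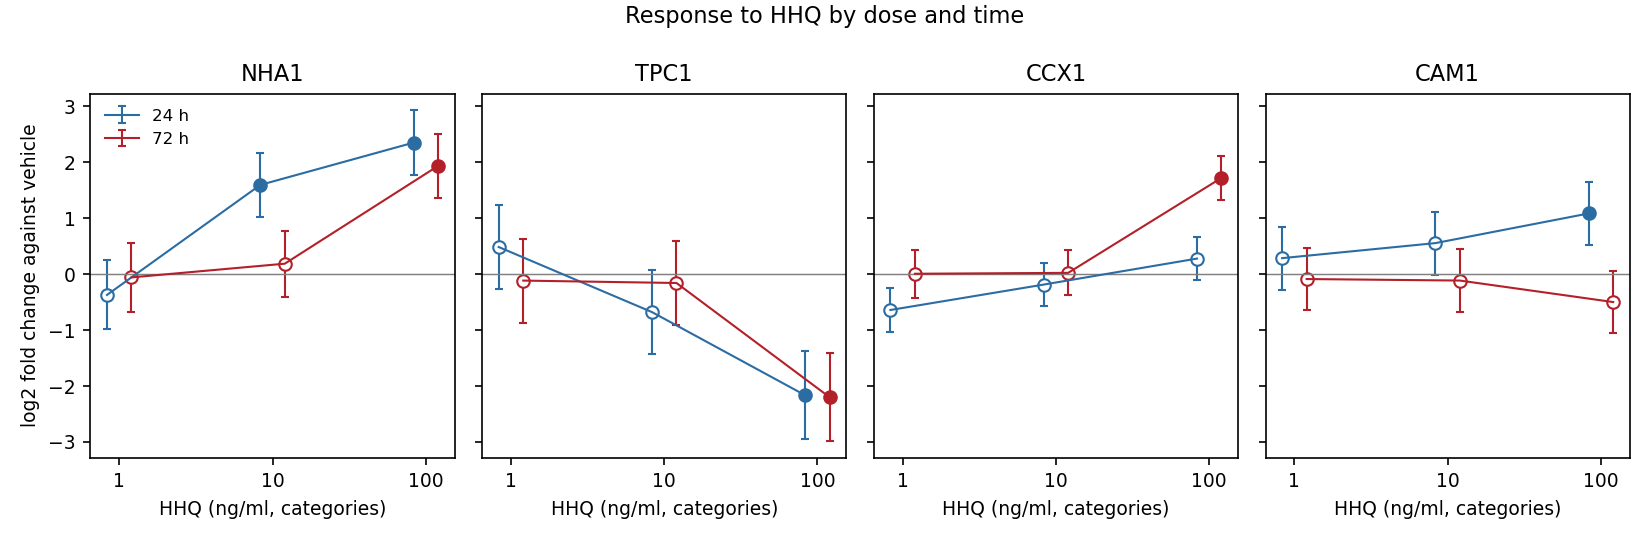
Log2 fold change against the vehicle of the same time, by HHQ dose (categories), for the 4 genes. Bars are approximate 95% intervals derived from edgeR's fold changes and F values, and filled circles mark an adjusted p under 0.05. NHA1 was 2.35 and 1.93 higher at 100 ng/ml, TPC1 −2.17 and −2.20, CCX1 1.72 at 72 h, and CAM1 1.08 at 24 h; the uncalled −0.50 of CAM1 at 72 h was 0.63 with library totals alone.

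NHA1, named for the antiporter that exports sodium in exchange for protons at the plasma membrane of yeast, rose with HHQ at the middle and highest doses at 24 h, and at the highest dose at 72 h. At 24 h the vehicle libraries, replicates 1 to 4 in order, stood at 2.57, 1.74, 1.44 and 2.51 CPM. The 10 ng/ml libraries stood at 8.09, 8.11, 4.45 and 4.17 CPM. The 100 ng/ml libraries stood at 12.5, 11.7, 9.57 and 8.13 CPM. Neither HHQ group overlapped the vehicle, and the groups of 10 and 100 ng/ml met without overlapping. The rise over vehicle was 3.02-fold at 10 ng/ml (log2 fold change 1.59 ± 0.28 SE, edgeR adjusted p = 0.000156) and 5.10-fold at 100 ng/ml (2.35 ± 0.29, adjusted p = 1.4e-07). The 1 ng/ml libraries lay between 0.931 and 2.02 CPM and overlapped the vehicle (log2 fold change −0.37, 95% interval −0.99 to 0.245).

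At 72 h the NHA1 level in the vehicle cultures was 2.76, 2.34, 2.34 and 2.67 CPM. With 100 ng/ml it was 8.91, 6.98, 11.6 and 11.1 CPM, and every HHQ library was above every vehicle library. The rise was 3.82-fold (log2 fold change 1.93 ± 0.28, edgeR adjusted p = 2.16e-06). With 10 ng/ml the libraries had 3.91, 2.25, 3.22 and 2.09 CPM, which overlapped the vehicle (log2 fold change 0.19, 95% interval −0.401 to 0.774). In the 10 ng/ml cultures themselves NHA1 was 2.15-fold lower at 72 h than at 24 h, beside 12.3% of all genes called (edgeR adjusted p = 0.00796), a call lost in 72 h replicates 1 and 2 alone (log2 fold change −1.03, edgeR adjusted p = 0.0521). The response to 10 ng/ml was 1.41 smaller on the log2 scale at 72 h than at 24 h, but that difference of responses missed the threshold (log2 −1.41 ± 0.40, edgeR adjusted p = 0.079, beside 1.44% of all genes called). It was called with the replicate block (−1.40, edgeR adjusted p = 0.0279), with DESeq2 (−1.35, adjusted p = 0.0264), without the libraries that stood apart (−1.65, edgeR adjusted p = 0.0247), and without HHQ 10 replicate 3 or 4 at 24 h or replicate 1 at 72 h (edgeR adjusted p 0.0454 to 0.0474).

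Dose steps separated NHA1 unevenly. From 1 to 10 ng/ml at 24 h it rose 3.91-fold, beside 25.4% of all genes called (edgeR adjusted p = 1.47e-05), and from 10 to 100 ng/ml at 72 h 3.36-fold, beside 39.5% (adjusted p = 1.54e-05). The step from 10 to 100 ng/ml at 24 h was 1.69-fold, beside 18.7% (edgeR adjusted p = 0.0463). The call for that step was lost when any of HHQ 10 replicates 3 and 4 and HHQ 100 replicates 1, 2 and 3 was left out, for which the log2 fold change was 0.57 to 0.78 and the edgeR adjusted p 0.0711 to 0.166. With library totals alone the responses of NHA1 to 100 ng/ml were 3.18 at 24 h and 3.10 at 72 h on the log2 scale.

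Other genes of the NHA name did not all move with NHA1. NHA4 was 2.76-fold higher than vehicle at 24 h (3.14 ± 0.51 against 1.13 ± 0.12 CPM, SD, n = 4; edgeR adjusted p = 0.000118) and 1.67-fold higher at 72 h (adjusted p = 0.029). NHA2 was not called at either time, with log2 fold changes of 0.25 and −0.06 (1.11 and 1.14, both called, with library totals alone). NHA3 and NHA5 had 0 counts in all 36 libraries. Within each library, the ratio of NHA1 to NHA2 counts needs no scaling between libraries. Its log2 value in vehicle at 24 h was −1.66, −2.10, −2.18 and −2.20, and with 100 ng/ml it was 0.25, −0.06, 0.04 and −0.04. At 72 h the vehicle means stood at −1.94 ± 0.41 (SD, n = 4) and the 100 ng/ml means at −0.01 ± 0.15. The ratio was thus higher with HHQ by 2.08 at 24 h and 1.93 at 72 h on the log2 scale, with no overlap (exact two-sided permutation p = 0.0286 for each, the smallest that 4 against 4 libraries allow, and 0.0381 adjusted over 8 such tests). The ratio of NHA1 to NHA4 was higher by 0.92 and 1.19 (exact permutation p = 0.0286, adjusted 0.0381). A ratio shows that the genes changed unequally, not that either stayed the same. The ratio tests here and below were added after the data were seen, so their p-values describe the separation and are no independent evidence.

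CCX1 carries the name of a family of cation/calcium exchangers known from plants. It was lowest in the 72 h vehicle cultures and rose there 3.29-fold with 100 ng/ml HHQ. The vehicle libraries at 72 h stood at 2.51, 2.17, 2.24 and 1.81 CPM, and the 100 ng/ml libraries at 6.61, 6.29, 7.72 and 8.21 CPM. No HHQ library came near the vehicle range (log2 fold change 1.72 ± 0.19, edgeR adjusted p = 2.27e-08, and 2.88 with library totals alone). At 24 h the vehicle libraries had 4.08, 3.37, 3.6 and 3.4 CPM and the 100 ng/ml libraries 4.15, 4.18, 5.03 and 4.20 CPM. These groups did not overlap either, but by a narrow margin, and the difference was not called (log2 fold change 0.28, 95% interval −0.0996 to 0.654, edgeR adjusted p = 0.235). With library totals alone it was called at 1.08 (edgeR adjusted p = 0.0123).

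The response of CCX1 to 100 ng/ml was larger at 72 h than at 24 h by 1.44 ± 0.27 on the log2 scale (edgeR adjusted p = 0.000687 for the difference of responses, beside 6.03% of all genes called). The vehicle level fell 1.65-fold from 24 to 72 h, beside 7.11% of all genes called (edgeR adjusted p = 0.0174), and the 100 ng/ml level rose 1.64-fold, beside 7.84% (adjusted p = 0.0119). The rise with 100 ng/ml was uncalled with library totals alone (log2 fold change 0.66, edgeR adjusted p = 0.371) and in 72 h replicates 1 and 2 alone (0.60, adjusted p = 0.0568). The fall in vehicle was uncalled without vehicle replicate 1 at 24 h or replicate 4 at 72 h (log2 fold change −0.66 and −0.65, edgeR adjusted p = 0.0648 and 0.0575). CCX1 at 10 ng/ml and 72 h lay between 1.89 and 2.78 CPM and overlapped the vehicle, and from 10 to 100 ng/ml it rose 3.24-fold (edgeR adjusted p = 5.98e-08).

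At the lowest dose and 24 h, CCX1 gave the smallest p of the 4 genes. Its libraries had 3.22, 2.05, 2.12 and 1.82 CPM, all below the vehicle range, yet it was not called over all genes (log2 fold change −0.64 ± 0.20, edgeR adjusted p = 0.537). Without the library that stood apart in each early group, CCX1 was called at −0.87 (edgeR adjusted p = 0.0244), as were 3817 of all genes in place of 0. That call rests on which HHQ 1 library is left out: with replicate 4 left out in place of replicate 1, CCX1 was at −0.58 (edgeR adjusted p = 0.335), and with all of HHQ 1 kept it was at −0.67 (adjusted p = 0.142), and 1 gene was called over all genes in either case. Both settings were chosen after seeing the data. At 24 h the step from 10 to 100 ng/ml was uncalled for CCX1 (log2 fold change 0.46, edgeR adjusted p = 0.0766) and called with the replicate number as a block (0.47, adjusted p = 0.0438). Same-numbered libraries varied together in that comparison, although the block was shared by all treatments at 24 h.

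Of the 7 calcium exchangers tested, CCX1 included, 5 fell at 100 ng/ml after 24 h and 0 rose, where 19.5% of all tested genes fell and 21.6% rose. After 72 h 3 fell and CCX1 alone rose, beside 23.6% and 22.6% of all genes. These counts are with TMM scaling. CCX2, CAX3 and CAX5 lost their calls at 24 h under library totals alone, and CCX1 was then called higher. CCX2, the other gene of that name, was 2.15-fold lower at 24 h (136 ± 66.5 CPM in vehicle, 63.3 ± 25.8 with HHQ; edgeR adjusted p = 0.0289) and 2.21-fold lower at 72 h (adjusted p = 0.0205). Its groups overlapped at both times, and with library totals alone it was not called, at −0.20 and −0.12. NCX1, named for the Na+/Ca2+ exchanger of animals, was 3.71-fold lower at 24 h and 5.15-fold lower at 72 h with no overlap (edgeR adjusted p = 0.000691 and 4.63e-05). CAX4, named for vacuolar cation/proton exchangers of plants, was 3.21-fold and 3.40-fold lower (edgeR adjusted p = 0.00374 and 0.00211). CAX3 was 1.5-fold lower at 24 h (edgeR adjusted p = 0.0171) and uncalled at 0.23 there with library totals alone; at 72 h it was uncalled at −0.15. CAX5, named here after its values were seen to complete the count, was lower at 24 h by −0.50 on the log2 scale (edgeR adjusted p = 0.0497) and uncalled at 0.33 with library totals alone.

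The ratio of CCX1 to CCX2 counts within a library was higher with 100 ng/ml HHQ at both times. At 24 h its log2 value was −4.65, −4.71, −5.03 and −6.09 in vehicle and −3.68, −3.71, −3.11 and −4.59 with 100 ng/ml. At 72 h it was −6.50, −7.45, −6.38 and −6.55 in vehicle and −4.60, −4.89, −2.29 and −2.74 with 100 ng/ml. Every HHQ library was above every vehicle library of its time, and at 72 h replicates 3 and 4 stood higher than replicates 1 and 2. The ratio was higher with HHQ by 1.35 at 24 h and 3.09 at 72 h (exact two-sided permutation p = 0.0286, adjusted 0.0381 over 8 tests, added after the data were seen).

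**Figure D3:**
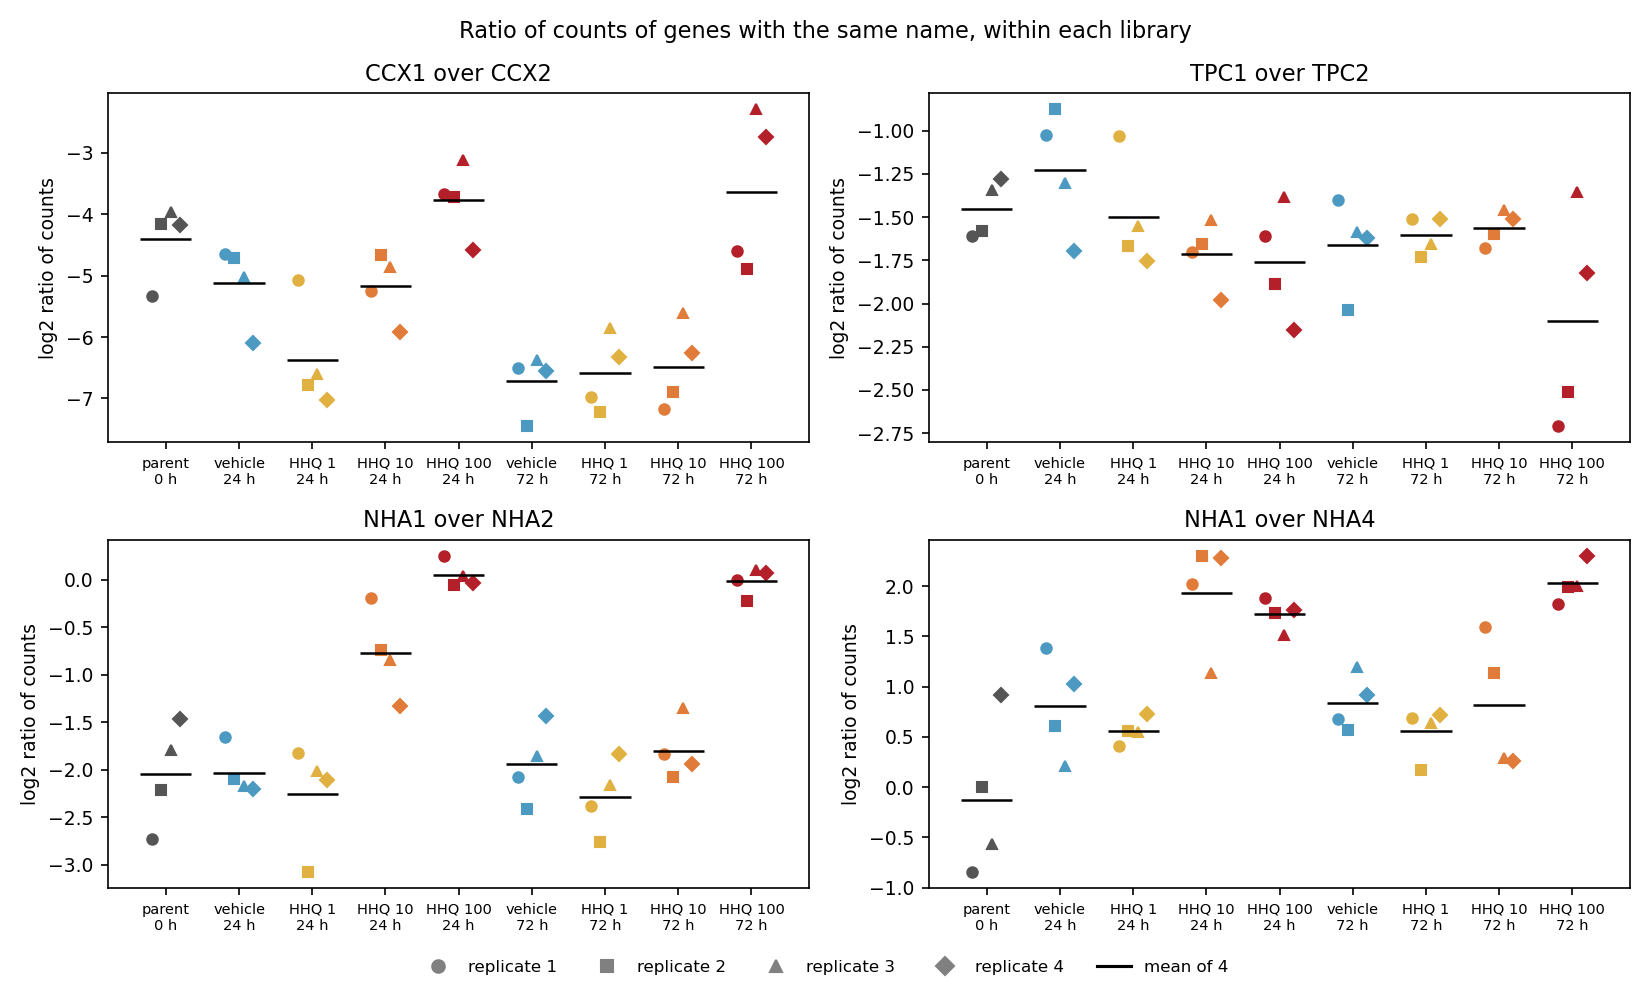
Log2 ratio of the counts of a gene to another gene of the same name within each library, by group; symbols mark replicates and bars the mean of 4. CCX1 over CCX2 and NHA1 over NHA2 were higher at 100 ng/ml than in vehicle at both times without overlap, and TPC1 over TPC2 overlapped.

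ECA1, named for the calcium pump of the endoplasmic reticulum in Arabidopsis, was the pump gene found by symbol and was higher with HHQ. It had 54.9, 36.3, 32.3 and 23.4 CPM in vehicle at 24 h and 114, 143, 113 and 69.2 CPM with 100 ng/ml. The groups did not overlap, and ECA1 was 2.99-fold higher (log2 fold change 1.58 ± 0.25, edgeR adjusted p = 7.77e-06). At 72 h it was 3.00-fold higher (adjusted p = 5.37e-06), and at 10 ng/ml and 24 h 1.86-fold higher with overlapping groups (edgeR adjusted p = 0.0117).

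TPC1, which in Arabidopsis names a calcium-regulated cation channel of the vacuole, fell at the highest dose by nearly the same factor at both times. At 24 h it had 55.3, 55.5, 51.5 and 93.8 CPM in vehicle and 15.2, 11.4, 11.7 and 18.7 CPM with 100 ng/ml. At 72 h it had 113, 133, 55.5 and 53.7 CPM in vehicle and 21.1, 31.3, 10.5 and 14.5 CPM with 100 ng/ml. The groups were far apart at both times, although the libraries that stand apart were high for TPC1 in either treatment: replicate 4 at 24 h, and replicates 1 and 2 at 72 h. TPC1 was 4.49-fold lower at 24 h (log2 fold change −2.17 ± 0.39, edgeR adjusted p = 5.08e-05) and 4.60-fold lower at 72 h (−2.20 ± 0.39, adjusted p = 3.02e-05). The responses at the 2 times differed by −0.04 on the log2 scale, with a wide 95% interval of −1.10 to 1.03.

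Within those sets of libraries the fall of TPC1 was as large. It was −2.08 at 24 h without the libraries that stood apart (edgeR adjusted p = 0.000389), and −2.19 in replicates 1 and 2 and −2.07 in replicates 3 and 4 at 72 h (adjusted p = 0.00014 for each). With library totals alone TPC1 was still lower, by −1.30 at 24 h and −1.10 at 72 h on the log2 scale (edgeR adjusted p = 1.88e-05 and 8.68e-05).

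From 1 to 100 ng/ml TPC1 fell with dose at 24 h, but the vehicle did not lie at the top of that order. The vehicle mean was 64.0 CPM and the 1 ng/ml mean 89.5 CPM, a difference that was uncalled (log2 fold change 0.48, edgeR adjusted p = 0.546). The 1 ng/ml libraries had 59.9, 111, 83.7 and 103 CPM, the 10 ng/ml libraries 32.4, 31.1, 36.7 and 59.9 CPM. These 2 groups met at 59.9 CPM without overlapping. TPC1 was 2.24-fold lower at 10 than at 1 ng/ml (edgeR adjusted p = 0.0229) and 2.80-fold lower at 100 than at 10 ng/ml (adjusted p = 0.00571). The first of these steps was lost without HHQ 1 replicate 2 or 4 or HHQ 10 replicate 1, 2 or 3 (log2 fold change −1.13 to −1.04, edgeR adjusted p 0.0582 to 0.0784) and with library totals alone (−0.48, adjusted p = 0.0784). Against vehicle, 10 ng/ml gave −0.68 (95% interval −1.43 to 0.0758, edgeR adjusted p = 0.275). Libraries of the same replicate number varied together in this comparison. A fit with that number as a block called TPC1 at the same size (−0.68, edgeR adjusted p = 0.00694). The block was shared by all treatments at 24 h, also where same-numbered libraries did not vary together (r down to −0.239 for HHQ 1 against vehicle). The labels name no batch. At 72 h TPC1 at 10 ng/ml ran from 49.7 to 127 CPM and overlapped the vehicle, and the step from 10 to 100 ng/ml was 4.12-fold down (edgeR adjusted p = 0.000115).

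Channels as a group held 4 lower genes and 0 higher of 9 tested at 100 ng/ml, at both times. The 4 are 44.4% of the 9, beside 41.1% of all genes called in either direction at 24 h and 46.2% at 72 h. Of all tested genes 19.5% were lower at 24 h and 23.6% at 72 h. The share called is thus near the background, and the share lower is above it, on 9 genes and with TMM scaling. TPC2, the other gene of that name, was 3.19-fold lower at 24 h and 2.98-fold lower at 72 h (edgeR adjusted p = 0.0122 and 0.0151). Its groups overlapped at 72 h, at 165 to 547 CPM in vehicle and 26.8 to 178 CPM with 100 ng/ml. The log2 ratio of TPC1 to TPC2 counts, HHQ minus vehicle, differed by −0.53 at 24 h (exact permutation p = 0.114, adjusted 0.131) and −0.44 at 72 h (exact permutation p = 0.286), with overlapping groups at both times. CAV1, named for a voltage-gated calcium channel, was 3.22-fold and 2.80-fold lower (edgeR adjusted p = 0.0124 and 0.0226). The CAV1 groups overlapped at 72 h, at 169 to 549 CPM in vehicle and 42.2 to 234 CPM with 100 ng/ml. CLC-3, of the chloride channels and exchangers, was 2.12-fold lower at 24 h and 4.79-fold lower at 72 h (edgeR adjusted p = 0.0253 and 3.57e-05). With library totals alone TPC2 and CAV1 lost their calls at both times and CLC-3 at 24 h, all with negative values. The 5 others, among them the proton channel gene HVCN1, were uncalled.

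CAM1, named for calmodulin, had its highest group mean in the parent cultures with TMM scaling, whereas by share of all counts the 100 ng/ml cultures at 24 h stood above them, at 0.221% ± 0.018 (SD, n = 4) against 0.175% ± 0.0118. At 24 h it was higher with 100 ng/ml HHQ than in vehicle. The vehicle libraries at 24 h stood at 396, 378, 833 and 854 CPM, so that replicates 1 and 2 had less than replicates 3 and 4. The 10 ng/ml libraries had 809.5, 889, 863 and 1051 CPM, and the 100 ng/ml libraries 1156, 1367, 1320 and 1373 CPM. All 4 libraries at 100 ng/ml were above all of vehicle. The rise was 2.12-fold (log2 fold change 1.08 ± 0.28, edgeR adjusted p = 0.00254, and 1.96 with library totals alone). At 10 ng/ml CAM1 was uncalled (log2 fold change 0.55, 95% interval −0.00776 to 1.12, edgeR adjusted p = 0.221), whereas the fit with replicate blocks called it (0.63, adjusted p = 0.0426).

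At 72 h CAM1 was not called at any dose. It had 516, 958, 616 and 581 CPM in vehicle and 473, 536, 322 and 559 CPM with 100 ng/ml, and these groups overlapped. The log2 fold change was −0.50 (95% interval −1.06 to 0.0622, edgeR adjusted p = 0.138). The sign depended on the scaling: with library totals alone it was 0.63 and called (edgeR adjusted p = 0.00833). As a share of all counts in a library, with no TMM scaling, CAM1 took 0.0569% ± 0.0214 (SD, n = 4) in vehicle and 0.221% ± 0.018 with 100 ng/ml at 24 h, and 0.0475% ± 0.00718 and 0.0736% ± 0.0157 at 72 h. On either scale the response at 72 h was the smaller. The difference of responses was −1.58 ± 0.39 with TMM (edgeR adjusted p = 0.0104) and −1.32 with library totals alone (adjusted p = 0.00434). It missed the threshold in a fit of only the groups compared (−1.44, edgeR adjusted p = 0.072) and with either set of 72 h replicates alone (−1.57 and −1.43, adjusted p = 0.0776 and 0.0872). In the 100 ng/ml cultures CAM1 was 2.76-fold lower at 72 h than at 24 h (edgeR adjusted p = 0.000871).

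No other calmodulin gene could be tested. CAM2, CAM3 and CAM4 had 28.2, 7.04 and 3 counts summed over all 36 libraries. Of the 6 tested genes listed as calcium sensors and related, CAM1 included, 3 were called at 24 h with 100 ng/ml (50%, beside 41.1% of all genes) and 2 at 72 h (33.3%, beside 46.2%). The 2 that fell, at both times, were kinase genes. CIPK1 and CIPK3 name kinases that in plants are bound by calcineurin B-like calcium sensors. CIPK1 was 5.07-fold lower at 24 h, with no overlap, and 3.16-fold lower at 72 h (edgeR adjusted p = 0.000173 and 0.00318). CIPK3 was 2.29-fold and 2.36-fold lower with overlapping groups (edgeR adjusted p = 0.0488 and 0.0372), and with library totals alone uncalled at −0.29 and −0.28. CIPK2 was uncalled, at −0.40 and −0.41. CRT-1 and CRT-2, named here to complete the 6, were given no role, so the shares are not of calcium sensors alone.

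**Figure D4:**
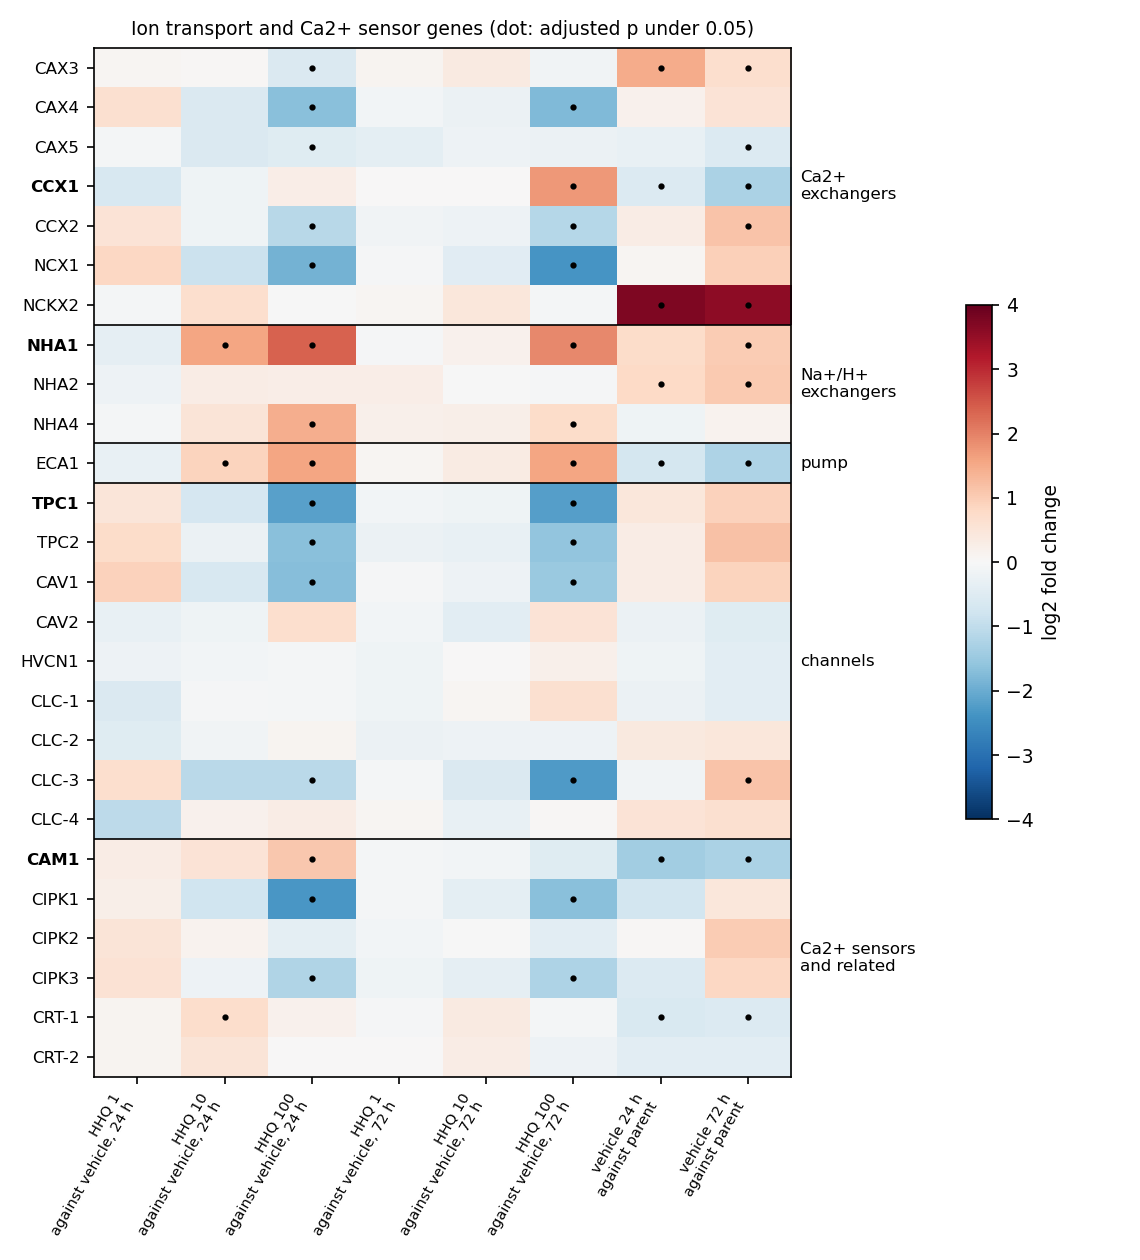
Log2 fold change, as colour, of the 26 tested ion transport and calcium sensor genes in the 6 comparisons with vehicle and the 2 of vehicle with parent cultures; a dot marks an adjusted p under 0.05 and bold type NHA1, CCX1, TPC1 and CAM1. At 100 ng/ml 4 genes were higher and 11 lower at 24 h, and 4 higher and 9 lower at 72 h; scaled by library totals only, the counts were 9 higher to 4 lower and 16 to 4.

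Over all roles, 34 genes were found by the symbol prefixes of ion transport and calcium sensing, and 26 were tested. With 100 ng/ml 4 of these rose and 11 fell at 24 h, 57.7% of the 26 beside 41.1% of all genes, with a median log2 fold change of −0.06 beside 0.0714 for all genes. At 72 h 4 rose and 9 fell, 50% beside 46.2%, with a median of −0.20 beside 0.0372. Of all tested genes 21.6% rose and 19.5% fell at 24 h, and 22.6% rose and 23.6% fell at 72 h. Without the 4 members, 2 of the 22 others rose and 10 fell at 24 h (54.5% called), and 2 rose and 8 fell at 72 h (45.5%). Of the 26, the genes that rose at both times were NHA1, NHA4 and ECA1, joined by CAM1 at 24 h and CCX1 at 72 h. This balance rests on the scaling, since with library totals alone 9 rose and 4 fell at 24 h and 16 rose and 4 fell at 72 h, as over all genes 86.5% and 90.1% of calls were then higher in place of 52.6% and 48.9%. Without vehicle replicate 4 at 24 h, 9 of the 26 were called at that time in place of 15. At 10 ng/ml and 24 h 3 rose and 0 fell, 11.5% beside 11.8% of all genes, of which 7.39% rose and 4.37% fell. These were NHA1, ECA1 and CRT-1, the last named after its values were seen. The fit with replicate blocks called 10 of the 26, and 5268 of all genes in place of 3114. At 10 ng/ml and 72 h 0 of the 26 was called by edgeR, with or without the block, beside 251 of all genes without it and 699 with it.

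Vehicle cultures were also compared with the parent cultures, from which they differ in the vehicle, the transfer and the time together, which cannot be told apart. CAM1 and CCX1 were lower in vehicle than in the parent cultures at both times. CAM1 had 2186, 1472, 1487 and 1281 CPM in the parent cultures, all above the vehicle libraries of either time. It was 2.61-fold lower in vehicle at 24 h, beside 18.9% of all genes called (edgeR adjusted p = 0.000306), and 2.41-fold lower at 72 h, beside 32.2% (adjusted p = 0.000675). CCX1 had 3.41, 5.92, 6.12 and 5.57 CPM in the parent cultures and was 2.41-fold lower in vehicle at 72 h (edgeR adjusted p = 4.91e-06). Its 1.45-fold fall at 24 h (edgeR adjusted p = 0.038) was lost without parent replicate 2 or 3 or vehicle replicate 3 or 4 (log2 fold change −0.56 to −0.51, adjusted p 0.0525 to 0.0828) and, at −0.78, with library totals alone. Parent replicate 1, which stands apart, was the lowest of its group for CCX1 and the highest for CAM1 and TPC1.

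NHA1 had 0.654, 1.15, 1.12 and 2.02 CPM in the parent cultures. It was 2.03-fold higher in vehicle at 72 h (edgeR adjusted p = 0.00982), a call lost without parent replicate 2 or 3 (log2 fold change 0.86 and 0.84, adjusted p = 0.0543 and 0.0603) and, at 0.39, with library totals alone. At 24 h its 0.72 was uncalled (edgeR adjusted p = 0.103), and it was called without parent replicate 4 (0.97, adjusted p = 0.0275). TPC1 had 66.6, 39.6, 38.6 and 42.8 CPM in the parent cultures and was uncalled in vehicle at 72 h (log2 fold change 0.92, 95% interval 0.166 to 1.68, edgeR adjusted p = 0.0555). It was called there without parent replicate 1 or without vehicle replicate 3 or 4 (1.09 to 1.14, edgeR adjusted p 0.0298 to 0.0326).

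Of the 26 genes, 7 were called in vehicle against parent at 24 h (26.9% beside 18.9%) and 11 at 72 h (42.3% beside 32.2%). Without the 4 members the shares of the 22 others were 22.7% and 36.4%. The gene with the largest change among the called genes of the 26 was NCKX2, named for a potassium-dependent Na+/Ca2+ exchanger and chosen after its values were seen. It rose from 63.8 CPM in the parent cultures to 855 CPM in vehicle at 24 h and 766 CPM at 72 h (log2 fold change 3.74 ± 0.28 and 3.58 ± 0.28, edgeR adjusted p = 3.24e-12 and 8.38e-12). With 100 ng/ml it was uncalled against vehicle, at −0.03 and −0.09. NHA2 was higher in vehicle as well, 1.73-fold at 24 h and 2.06-fold at 72 h (edgeR adjusted p = 0.00736 and 0.000402), and uncalled at 0.52 and 0.38 on the log2 scale with library totals alone.

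Ordered by group mean, NHA1 spanned 8.48-fold, from 1.24 ± 0.57 CPM (SD, n = 4) in the parent cultures to 10.5 ± 1.99 with 100 ng/ml at 24 h. Neighbours in that order overlapped except for the step from 10 ng/ml at 72 h (2.87 ± 0.86) to 10 ng/ml at 24 h (6.21 ± 2.19), which parted 3 high groups from 6 low ones. TPC1 spanned 6.29-fold, from 14.2 ± 3.45 CPM with 100 ng/ml at 24 h to 89.5 ± 22.95 with 1 ng/ml at 24 h, and every neighbour in its order overlapped the next. CCX1 spanned 3.30-fold, from 2.18 ± 0.29 in vehicle at 72 h to 7.21 ± 0.91 with 100 ng/ml at 72 h. Its top group did not overlap the parent cultures, which came next at 5.26 ± 1.25, nor did 100 ng/ml at 24 h overlap vehicle at 24 h below it. CAM1 spanned 3.40-fold with TMM scaling, from 472 ± 107 with 100 ng/ml at 72 h to 1606 ± 397 in the parent cultures. Neither end holds by share of all counts, where 100 ng/ml at 24 h was highest and 100 ng/ml at 72 h (0.0736%) stood above the other 72 h groups (0.0472% to 0.0496%). In its order the break without overlap lay between 100 ng/ml at 24 h, second at 1304 ± 102, and 10 ng/ml at 24 h at 903 ± 104.

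The 4 genes followed different courses over the libraries. As a description over the same 36 libraries, which share treatments and scaling, the Pearson r of log2 CPM was −0.76 between NHA1 and TPC1 and −0.76 between TPC1 and CCX1. It was 0.45 between NHA1 and CCX1, and between −0.15 and 0.10 for CAM1 with each of the others. Among the other 660 genes with a symbol that were tested, NHA1 was most like PKS5 (r = 0.93), named for a polyketide synthase, then TK (0.90) and BIG1 (0.90), and most opposite to the light-harvesting antenna gene Lhcf20_1 (−0.92). PKS5 and NHA1 both stood highest with 100 ng/ml at 24 h, PKS5 at 67.2 ± 6.24 CPM (SD, n = 4), but they shared less once group means were removed (within-group r = 0.45). That within-group r with NHA1 was 0.80 for TK and 0.47 for BIG1.

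TPC1 had the closest companions. Its r was 0.98 with each of dddD2 and dddD1, which carry the name of a bacterial gene for breakdown of dimethylsulfoniopropionate, and with AMT16, an ammonium transporter gene, and −0.93 with the small GTPase gene Rab5a. With group means removed the r with dddD2 was still 0.97, so these genes also varied together among replicates of a group. Of 26493 other genes 1340 had an r over 0.9 with TPC1, against 72 for NHA1, 1 for CCX1 and 0 for CAM1. CCX1 was most like EFG3 (0.89), ARL2 (0.82) and ECH14 (0.82), and most opposite to ASS1 (−0.87), named for argininosuccinate synthase. CAM1 was most like COPE1-1 (0.76), named for a subunit of the COPI vesicle coat, ctn1 (0.73) and MGO (0.70), and most opposite to CRY2 (−0.67), named for a cryptochrome. With group means removed the r with CAM1 was 0.68 for COPE1-1, 0.87 for ctn1 and 0.86 for MGO. The r with CCX1 was then 0.49 for EFG3, 0.54 for ARL2 and 0.35 for ECH14.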

How the data were processed

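Strand-marked libraries of poly(A) RNA were built, per the labels' protocols. Trimmomatic 0.38 and Salmon 0.12.0 are named in the submitters' processing notes; the transcript reference and settings were not given in the sources used here. What the authors deposited is 1 estimated count per gene and library, without normalization. Of the values 45.8% were not whole, and all were rounded before testing. The organism field of the labels names another strain than the cultures' CCMP2090. The effect of sequence differences was not examined. Locus tags come from a RefSeq gene table, which matched 37202 of 37212 identifiers and all 4 members. No sequence was used here.

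The filter filterByExpr kept 26494 genes. TMM factors and quasi-likelihood F tests came from edgeR 4.0.16 with limma 3.58.1 in R 4.3.3, in 1 fit of all 36 libraries with 9 group means, two-sided. Benjamini-Hochberg adjustment ran over all tested genes in each of 18 comparisons. The median biological coefficient of variation was 0.287. Replicates are labelled as biological, and the mean chi-square per gene between replicates was 5.61 to 211 (54 pairs), so none was treated as a repeat. An SE is that of a log2 fold change, derived as its absolute value over the square root of edgeR's F. Intervals are 95%, from that SE and a t quantile, and so approximate. Log2 CPM used a prior count of 2. Ratios of counts used a pseudocount of 0.5 and exact permutation tests, added after seeing the data. Counting error alone limits NHA1 most, at as few as 9 counts.

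The members, the lists by symbol prefix and the tests were chosen with earlier results of these data known. The rule for named genes took the 4 members, up to 4 called genes per role at 100 ng/ml by smallest p, every other CAM, CCX, TPC and NHA gene, and the 3 genes with a symbol most like each member and the most opposite. Replicate numbers were read as pairing libraries only where the correlation of deviations from group means was over 0.1 for every pair: HHQ 10 against vehicle at 24 h (0.256 to 0.606), HHQ 1 and HHQ 10 against vehicle at 72 h (0.392 to 0.547 and 0.277 to 0.538), at 72 h HHQ 10 against HHQ 1 (0.306 to 0.532), and HHQ 100 against HHQ 10 at both times (0.168 to 0.543, then 0.229 to 0.541). Alternatives were median-ratio size factors, library totals, no filter, the replicate block, DESeq2 1.42.0, only the groups compared, and leaving out libraries. The replicate block treated a number as shared by all treatments of a time, also by those whose same-numbered libraries did not vary together. The labels name no batch.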

Additional observations from a re-analysis of the deposited data

Results flagged for a closer look

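Of 36 groups of 4 libraries, 9 for each of the 4 genes, 3 held a library whose gap to the next, as a share of the group's whole range, passed Dixon's 95% critical value; chance flags about 1 group in 20. TPC1 in parent replicate 1 stood at 66.6 CPM, with the next library at 42.8. TPC1 in vehicle replicate 4 at 24 h stood at 93.8 CPM, with the next at 55.5. Both libraries also stand apart over all genes. CCX1 in replicate 3 of 100 ng/ml HHQ at 24 h stood at 5.03 CPM, with the next at 4.20, and that library does not stand apart over all genes.

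The response to 100 ng/ml HHQ differed between the times for 2 of the 4 genes, tested as the difference of the responses in edgeR. For CCX1 the response at 72 h minus that at 24 h was 1.44 on the log2 scale (adjusted p = 0.000687), and for CAM1 it was −1.58 (adjusted p = 0.0104). For CAM1 the TMM factors of the 100 ng/ml and vehicle libraries do not overlap at either time, and their part in the difference was not tested beyond the −1.32 found with library totals alone.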

How the results depend on the processing

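All 7 calls of NHA1, TPC1, CCX1 and CAM1 for HHQ against vehicle (NHA1 in 3 comparisons, TPC1 in 2, CCX1 at 72 h and CAM1 at 24 h with 100 ng/ml) kept direction and call under every alternative run. Over all 18 comparisons of the 4 genes, 1124 alternative values kept direction and side of the threshold, 41 passed it where the reported value did not, 38 missed it and 73 changed sign. Of the 73, 71 were called neither as reported nor under the alternative, and 2 were called under the alternative. In the sentences below values are log2 fold changes, and the cause of a change was not tested.

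With library totals alone, CAM1 reversed to 0.63 for HHQ 100 against vehicle and to 0.57 against HHQ 10 at 72 h. Newly called were CAM1 for HHQ 10 against vehicle (0.87), HHQ 100 against HHQ 10 (1.09) and HHQ 10 against HHQ 1 (1.02) at 24 h and for HHQ 10 at 72 against 24 h (−1.06), and CCX1 for HHQ 100 against vehicle (1.08) and HHQ 10 (1.01) and for HHQ 10 against HHQ 1 (1.06) at 24 h. Lost were TPC1 for HHQ 10 against HHQ 1 at 24 h (−0.48), NHA1 for vehicle at 72 h against parent (0.39), and CCX1 for vehicle at 24 h against parent (−0.78), vehicle at 72 against 24 h (−1.13) and HHQ 100 at 72 against 24 h (0.66).

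With the replicate block, called were TPC1 (−0.68) and CAM1 (0.63) for HHQ 10 against vehicle and CCX1 (0.47) for HHQ 100 against HHQ 10 at 24 h, where same-numbered libraries varied together. Where they share only a number (pair correlations from −0.501 up), called were TPC1 for vehicle at 72 h against parent (0.81), TPC1 (0.95) and CCX1 (−0.52) for HHQ 10 at 72 against 24 h, and NHA1 for the difference of responses to HHQ 10 (−1.40). The block changed no other call of the 4 genes. DESeq2 called CCX1 for HHQ 100 against HHQ 10 at 24 h (0.42), CCX1 for HHQ 10 at 72 against 24 h (−0.51) and the NHA1 difference of responses to HHQ 10 (−1.35).

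NHA1 for HHQ 100 against HHQ 10 at 24 h was uncalled with median-ratio size factors (0.70), no filter (0.73), only the groups compared (0.70) and without the libraries that stood apart (0.72). In fits of only the groups compared, CCX1 (0.41) and CAM1 (0.48) were called for that step, and CCX1 for vehicle at 24 h (−0.54), NHA1 for vehicle at 72 h (0.88), both against parent, CCX1 for vehicle at 72 against 24 h (−0.77) and the CAM1 difference of responses to HHQ 100 (−1.44) were not. Without the library that stood apart in each early group, called were CCX1 for HHQ 1 against vehicle (−0.87) and HHQ 10 against HHQ 1 (0.68) at 24 h, TPC1 for vehicle at 72 h against parent (1.14), TPC1 (1.25) and CCX1 (−0.54) for HHQ 10 at 72 against 24 h, and the NHA1 difference of responses to HHQ 10 (−1.65).

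With 72 h replicates 1 and 2 alone, called were TPC1 for vehicle at 72 h against parent (1.34), and TPC1 at 72 against 24 h in vehicle (0.92), HHQ 10 (1.38) and HHQ 100 (0.91), with CCX1 in HHQ 10 (−0.68). Not called were NHA1 for vehicle at 72 h against parent (0.97) and HHQ 10 at 72 against 24 h (−1.03), CCX1 at 72 against 24 h in vehicle (−0.66) and HHQ 100 (0.60), and the CAM1 difference of responses (−1.57). With replicates 3 and 4 alone, NHA1 for vehicle at 72 h against parent (0.87) and the CAM1 difference (−1.43) were not called.

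The uncalled sign changes follow by setting. With library totals alone they were CAM1 for HHQ 1 (−0.15) and CCX1 for HHQ 10 (0.077) at 24 h and CAM1 for HHQ 10 (0.062) at 72 h, all against vehicle; TPC1 (0.071) and CAM1 (0.069) for HHQ 10 against HHQ 1 at 72 h; NHA1 (−0.055) and CAM1 (−0.26) for vehicle at 72 against 24 h; and the differences of responses of CAM1 to HHQ 1 (0.14) and TPC1 to HHQ 100 (0.20). That TPC1 difference also changed sign with median-ratio size factors (0.11), no filter (0.036), DESeq2 (0.12), only the groups compared (0.12) and 72 h replicates 3 and 4 alone (0.12). CCX1 for HHQ 1 against vehicle at 72 h did so with no filter (−0.0056), the replicate block (−0.00043), DESeq2 (−0.030) and 72 h replicates 1 and 2 alone (−0.32). For HHQ 10 against HHQ 1, TPC1 at 72 h did so with the block (0.0087), CCX1 at 72 h in only the groups compared (−0.0088), and CAM1 at 24 h without the libraries that stood apart (−0.032). With 72 h replicates 1 and 2 alone CCX1 for HHQ 10 against vehicle (−0.21), CAM1 for HHQ 10 against HHQ 1 (0.15) and the CCX1 difference of responses to HHQ 10 (−0.018) did so. With replicates 3 and 4 alone it was NHA1 (0.033) and CAM1 (0.13) for HHQ 1 and TPC1 for HHQ 10 (0.020) against vehicle, TPC1 (0.21) and CCX1 (−0.054) for HHQ 10 against HHQ 1, and at 72 against 24 h TPC1 (−0.31) and CAM1 (−0.13) in vehicle and NHA1 (0.13) and TPC1 (−0.19) in HHQ 100.

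Leaving out 1 library at a time changed a call for NHA1 in vehicle against parent at 24 h (0.52 to 0.97) and 72 h (0.82 to 1.23), in HHQ 100 against HHQ 10 at 24 h (0.57 to 0.89) and in the difference of responses to HHQ 10 (−1.59 to −1.23); for TPC1 in vehicle at 72 h against parent (0.66 to 1.14), HHQ 10 against HHQ 1 at 24 h (−1.42 to −1.04) and HHQ 10 at 72 against 24 h (0.68 to 1.25); and for CCX1 in vehicle at 24 h against parent (−0.70 to −0.51), vehicle at 72 against 24 h (−0.81 to −0.65), HHQ 10 against HHQ 1 at 24 h (0.37 to 0.66) and HHQ 10 at 72 against 24 h (−0.65 to −0.45). It changed the sign of uncalled values at 72 h for HHQ 1 against vehicle in NHA1 (−0.18 to 0.087), TPC1 (−0.40 to 0.15), CCX1 (−0.16 to 0.10) and CAM1 (−0.19 to 0.14), for HHQ 10 against vehicle in TPC1 (−0.48 to 0.10), CCX1 (−0.11 to 0.094) and CAM1 (−0.22 to 0.11), and for HHQ 10 against HHQ 1 in TPC1 (−0.36 to 0.25), CCX1 (−0.12 to 0.19) and CAM1 (−0.13 to 0.040). It did so too for CAM1 in vehicle (−0.11 to 0.32) and NHA1 in HHQ 100 (−0.19 to 0.035) at 72 against 24 h and for the TPC1 difference of responses to HHQ 100 (−0.30 to 0.23).

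Of all genes, HHQ 1 against vehicle called 0 at 24 h, 12 with DESeq2, 3817 without the libraries that stood apart, 1 when HHQ 1 replicate 4 was left out among them in place of replicate 1, 1 when all of HHQ 1 was kept (both settings chosen after seeing the data), and 0 to 2 without 1 library; at 72 h it called 0, 8 with DESeq2, 3 in replicates 3 and 4 and 0 to 1 without 1 library. HHQ 10 called 3114 at 24 h and 5268 with the block; at 72 h it called 251, 135 with library totals, 699 with the block, 578 with DESeq2, 44 in the groups compared, 76 and 17 in replicates 1 and 2 and 3 and 4, and 163 to 210 without 1 library. Counts of all genes in other comparisons moved past 1.5 times for HHQ 100 against HHQ 10 at 24 h (4947; 3150 to 9070), HHQ 10 against HHQ 1 (at 24 h 6735; 4136 to 10636, and at 72 h 173; 4 to 439), vehicle (1884; 335 to 5191), HHQ 10 (3268; 1878 to 7130) and HHQ 100 (2076; 1024 to 4992) at 72 against 24 h, and the differences of responses to HHQ 1 (0; 0 to 5), HHQ 10 (381; 156 to 769) and HHQ 100 (1597; 1101 to 3173). Of the 26 listed genes, calls for HHQ 10 against vehicle at 24 h ran from 2 to 10 in place of 3, for HHQ 100 from 9 to 15 in place of 15 at 24 h and from 8 to 20 in place of 13 at 72 h, for HHQ 1 at 24 h from 0 to 5 in place of 0, and for vehicle against parent from 4 to 9 in place of 7 at 24 h and from 6 to 18 in place of 11 at 72 h. Depth limits NHA1 and CCX1 most, at 9 and 15.1 counts in their lowest libraries.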
